A study of Mus musculus with 20 samples.

Results

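The response to high fat diet of iWAT, inguinal white adipose tissue, a fat pad under the skin of the groin, was examined in mice that lack Tmem120a in their fat cells. The comparison takes 10 of the 20 libraries of the series, 5 Ad-Tmem120a-/- mice on high fat diet (HFD, replicates 17 to 21) against 5 Ad-Tmem120a-/- mice on low fat diet (LFD, replicates 6 to 10). Its members were set by the labels of genotype and diet and not by any measured value. Each library holds the RNA of whole iWAT of 1 female mouse of C57BL/6 background, aged 6 months and kept for 15 weeks on its diet. In the knockout mice, exons 2 and 3 of both copies of Tmem120a are flanked by loxP sites, and a Cre transgene under the Adipoq (adiponectin) promoter removes them. This promoter works in mature adipocytes, so the other cells of the pad and the earlier precursors keep the gene. The other 10 libraries are of Tmem120a fl/fl littermates without Cre, called wild type in the labels and control mice here, 5 on LFD (replicates 1 to 5) and 5 on HFD (replicates 11 to 15), and they entered only as a comparison. The HFD (D12331) gave 58% of its energy as fat and took its carbohydrate mainly from sucrose, whereas the LFD (D12328) gave 10.5% as fat and took its carbohydrate mainly from corn starch. Fat content and kind of carbohydrate therefore changed together and cannot be told apart. Mice were fasted before dissection. No batch is given in the labels.

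White fat stores energy as triglyceride. Its adipocytes take up fatty acids that lipoprotein lipase frees from circulating lipoproteins, and they also make fatty acids from glucose by de novo lipogenesis, in which ATP citrate lyase (Acly) gives acetyl-CoA, the acetyl-CoA carboxylases (Acaca, Acacb) give malonyl-CoA, fatty acid synthase (Fasn) builds palmitate, and Elovl6 and the stearoyl-CoA desaturases (Scd1, Scd2) lengthen and desaturate it. Insulin and glucose raise these enzymes through the transcription factors SREBP-1c (Srebf1) and ChREBP (Mlxipl), while dietary fat is known to lower them. A fat pad that grows on a fat-rich diet is known for higher leptin (Lep), the hormone that reports fat stores, and for a set of genes tied to adipocyte enlargement, of which Mest is the best known. Tmem120a itself is a membrane protein that sits at the nuclear envelope and is highly expressed in fat.

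Total estimated counts lay between 54605101 and 72778515 in the 5 LFD libraries and between 67215858 and 92387737 in the 5 HFD libraries. The authors deposited estimated counts and TPM (transcript levels scaled to the same total in every library, a share of all transcripts per unit of length) from Salmon, and both were summed per gene. Fold changes are log2 of HFD over LFD from edgeR's quasi-likelihood test on the estimated counts, and a gene was called where its adjusted p (Benjamini-Hochberg over all genes tested) lay under 0.1. The lowest correlation of a library with a replicate of its group, on log2(TPM + 1), lay between 0.942 and 0.958 on LFD and between 0.958 and 0.968 on HFD. Summed TPM of the 10 defining markers of white adipocytes ran from 15235 to 20892 on LFD and from 20311 to 30064 on HFD, with all 10 at 0.5 TPM or more in every library. The defining markers of brown fat, by contrast, summed to between 49.7 and 544 TPM. Markers of muscle ran from 11.9 to 796 TPM on LFD and from 29.9 to 1094 TPM on HFD, and those of lymphocytes from 377 to 1266 TPM and from 471 to 860 TPM, so these tissues reached the libraries in amounts that varied within each group, and their part in the results was not tested. In RNA of a whole pad, fewer cells of a kind and less RNA per cell cannot be told apart.

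Tmem120a (ENSMUSG00000039886, mm9 chromosome 5 from 136211355 to 136220141) gave 29.9, 74.0, 53.7, 21.5 and 28.4 TPM in the knockout mice on LFD and 69.2, 29.5, 29.9, 39.8 and 89.7 TPM on HFD. The values overlapped and did not differ beyond the spread (log2 fold change 0.20, standard error 0.33, adjusted p = 0.812, edgeR; exact permutation test on log2(TPM + 1), two-sided, p = 0.53175). Against control mice they were lower on both diets, most clearly for the full-length transcript ENSMUST00000043378, at 22.0 ± 10.4 TPM in knockout and 82.3 ± 29.7 TPM in control mice on LFD. On HFD it stood at 25.2 ± 7.53 TPM in knockout and 116 ± 41.8 TPM in control mice (each with SD and n = 5), and p was 0.00794 for either diet by exact permutation, the smallest that 5 against 5 can give. For that transcript, no difference between the diets was found in the knockout mice either (exact permutation test, p = 0.54762). With 5 mice a group, a change within this spread would be missed. The paralog Tmem120b gave 52.6 ± 23.4 TPM on LFD and 33.9 ± 13.2 TPM on HFD (SD, n = 5), within the spread (log2 fold change -0.59, standard error 0.33, adjusted p = 0.364, edgeR).

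Tested were 15705 genes whose TPM averaged 0.5 or more over these 10 libraries, and 1476 were called (9.40%), 714 higher on HFD (4.55%) and 762 lower (4.85%). Without a threshold on the adjusted p, 3115 genes had an unadjusted p under 0.05. A log2 fold change of at least 1 in size was found for 479 of the called genes, 158 higher and 321 lower. TPM of the groups did not overlap for 1249 of all tested genes (7.95%), 787 with every HFD library above every LFD library (5.01%) and 462 with every one below (2.94%), and 794 of these were called. The median log2 fold change over all tested genes was 0.0026. Counts depended on single libraries: without LFD replicate 6 they were 289 higher and 464 lower, and without HFD replicate 21 they were 427 and 536. Without LFD replicate 8 there were 448 genes higher, and without HFD replicate 19 there were 430. The split by direction also depended on the scale, since limma on log2(TPM + 1) gave 1009 genes higher and 525 lower, or 65.8% higher in place of 48.4%.

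**Figure D1:**
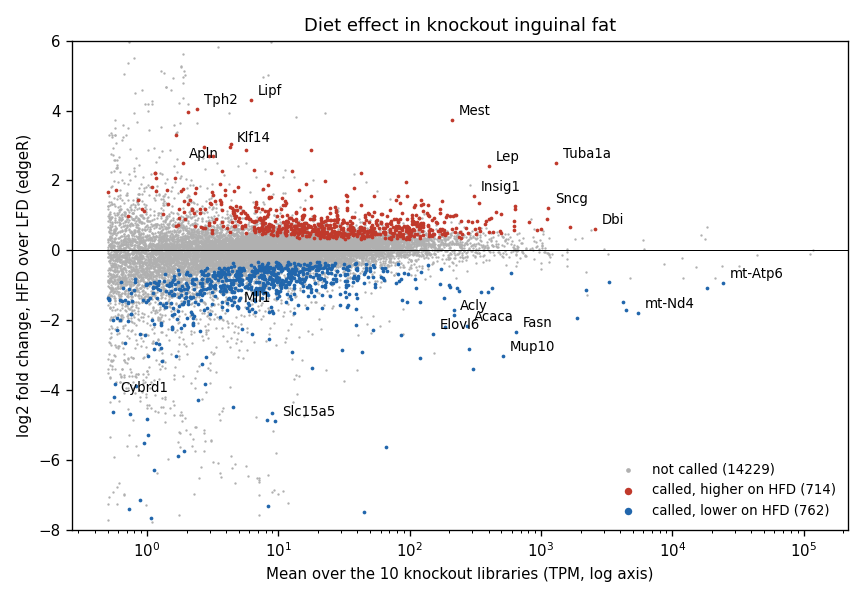
Log2 fold change of HFD over LFD in Ad-Tmem120a-/- iWAT (vertical axis) against mean TPM over the 10 libraries (horizontal log axis) for every tested gene, with 714 genes called higher in red, 762 called lower in blue and the others in grey. Lep, Mest and Tuba1a stand out among abundant genes on the higher side, Fasn, Elovl6 and mitochondrial transcripts on the lower side, and 19 genes lie outside the axes, 2 of them called.

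The core enzymes of de novo lipogenesis fell on HFD. Of 24 tested members of the lipogenesis list, 9 fell and 2 rose, beside 4.85% and 4.55% of all tested genes (median log2 fold change -0.19). The members that fell were Elovl6, Fasn, Thrsp, Acaca, Acly, Acacb, Tkt, Me1 and Mlxipl, and the same number fell in each of the other settings and with each library left out. Fasn (ENSMUSG00000025153, mm9 chromosome 11 from 120667254 to 120685492), which builds palmitate, gave 998, 1769, 1219.6, 610.1 and 693 TPM on LFD and 148, 138, 146, 357 and 399 TPM on HFD. All 5 HFD libraries lay below all LFD libraries (log2 fold change -2.32, standard error 0.45, adjusted p = 0.0128). Elovl6, which extends palmitate, gave 245, 489, 215, 194 and 104 TPM on LFD and 35.2, 44.1, 32.7, 56.2 and 80.5 TPM on HFD, and again the groups did not overlap (log2 fold change -2.41, standard error 0.32, adjusted p = 0.00252). For Acaca, the carboxylase of the cytosol, the values were 437, 630.2, 407, 336 and 329 TPM on LFD and 87.0, 84.8, 86.4, 229 and 105 TPM on HFD. HFD replicate 20 was the highest of its group there and still lay below LFD replicate 10, the lowest of the other (log2 fold change -2.17, standard error 0.33, adjusted p = 0.00362).

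Acly gave 267, 650.2, 288, 304 and 121 TPM on LFD and 87.5, 98.0, 63.4, 152 and 128 TPM on HFD, and its groups met because LFD replicate 10 was as low as the upper HFD libraries (log2 fold change -1.86, standard error 0.36, adjusted p = 0.0121). The same replicate was also the lowest LFD library for Elovl6, Thrsp, Acacb, Tkt, Me1 and Mlxipl. Thrsp, a lipogenic nuclear protein that answers to thyroid hormone and carbohydrate, fell by 2.19 on the log2 scale. The carboxylase of the mitochondrial surface, Acacb, fell by 1.75, while Tkt, a transketolase of the pentose phosphate pathway, fell by 1.70 and malic enzyme (Me1), a source of NADPH, fell by 1.21. Mlxipl, which encodes ChREBP, gave 13.8 ± 3.09 TPM on LFD and 7.25 ± 1.28 TPM on HFD (SD, n = 5; log2 fold change -1.02, standard error 0.14, adjusted p = 0.00261). Srebf1 gave 41.8 ± 14.02 TPM on LFD and 44.5 ± 14.01 TPM on HFD (SD, n = 5), and was not called (log2 fold change -0.11, standard error 0.29, adjusted p = 0.899).

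The desaturase Scd2 went the other way. It gave 99.9, 130.03, 102, 72.3 and 61.8 TPM on LFD and 149, 268, 178, 313 and 402 TPM on HFD, without overlap (log2 fold change 1.43, standard error 0.25, adjusted p = 0.00732). Scd1, by far the most abundant gene of the list, gave 13791, 17744, 14927, 10547 and 13121 TPM on LFD and 23519, 20650.4, 20418, 23874 and 26516 TPM on HFD. Its groups did not overlap either, but edgeR did not call it (log2 fold change 0.68, standard error 0.23, adjusted p = 0.111), while DESeq2 and limma on log2(TPM + 1) did. Mid1ip1, a partner of the acetyl-CoA carboxylases, rose (log2 fold change 0.67, standard error 0.18, adjusted p = 0.0551). Since Scd1 outweighs the other members, the TPM summed over the list did not follow the 9 genes that fell, and its ranges overlapped, at 13402 to 24997 TPM on LFD and 21819.5 to 29171 TPM on HFD.

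Part of the sterol pathway rose. Of 22 tested members of the list of cholesterol synthesis and uptake, 6 rose, beside 4.55% of all tested genes. The median was 0.46, with 20 of the 22 above 0. Insig1, which holds the SREBP precursors in the endoplasmic reticulum and is itself a target of SREBP, gave 122, 190.0, 111, 181 and 128 TPM on LFD and 276, 571, 376, 558 and 583 TPM on HFD. Every HFD library was above every LFD library (log2 fold change 1.57, standard error 0.23, adjusted p = 0.00352). Sc5d, a desaturase of a late step, gave 125 ± 11.02 TPM on LFD and 251.7 ± 40.7 TPM on HFD (SD, n = 5; log2 fold change 0.95, standard error 0.12, adjusted p = 0.00201), also without overlap. The late enzyme Hsd17b7 rose by 0.996 on the log2 scale, Cyp51 (lanosterol demethylase) by 0.73 and Sc4mol (now Msmo1, a methylsterol oxidase) by 0.61. The squalene epoxidase Sqle was not called, at 0.25 (adjusted p = 0.596, edgeR), and neither was Srebf2, which encodes SREBP-2, at -0.47 (adjusted p = 0.243, edgeR). Without LFD replicate 8 the list held 4 called members.

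The stretches just upstream of the start are shown for 2 lipogenic genes that fell and 3 sterol genes that rose. They were chosen with these matches known and do not stand for all called members of the 2 lists. They are from RefSeq on GRCm38.p6, cover 250 bases and end at the base before the start, and capitals mark the motif CCAAT, which reads ATTGG where it lies on the other strand, and the E-box CACGTG. Fasn is at chr11:120824548-120824797 (minus strand), Thrsp at chr7:97417551-97417800 (minus), Insig1 at chr5:28071162-28071411 (plus), Hsd17b7 at chr1:169969206-169969455 (minus) and Sc5d at chr9:42264301-42264550 (minus).
Fasn: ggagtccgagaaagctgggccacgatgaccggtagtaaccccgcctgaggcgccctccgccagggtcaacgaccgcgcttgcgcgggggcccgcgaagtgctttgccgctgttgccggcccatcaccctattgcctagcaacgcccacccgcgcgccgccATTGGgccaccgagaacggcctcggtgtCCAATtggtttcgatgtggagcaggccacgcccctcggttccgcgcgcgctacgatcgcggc
Thrsp: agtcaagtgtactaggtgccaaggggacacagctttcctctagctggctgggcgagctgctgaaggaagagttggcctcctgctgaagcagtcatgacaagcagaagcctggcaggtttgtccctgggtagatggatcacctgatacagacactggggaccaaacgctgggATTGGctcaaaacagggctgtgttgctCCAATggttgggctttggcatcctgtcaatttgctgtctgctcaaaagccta
Insig1: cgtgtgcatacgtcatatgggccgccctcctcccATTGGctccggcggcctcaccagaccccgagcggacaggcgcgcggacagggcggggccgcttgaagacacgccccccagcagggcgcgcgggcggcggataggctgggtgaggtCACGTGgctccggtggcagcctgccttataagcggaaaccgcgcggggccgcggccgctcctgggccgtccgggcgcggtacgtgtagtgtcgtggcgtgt
Hsd17b7: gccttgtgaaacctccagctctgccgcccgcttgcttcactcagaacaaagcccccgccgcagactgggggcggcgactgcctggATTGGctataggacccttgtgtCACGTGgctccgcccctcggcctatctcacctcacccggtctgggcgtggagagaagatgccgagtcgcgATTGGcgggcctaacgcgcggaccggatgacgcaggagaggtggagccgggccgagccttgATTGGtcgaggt
Sc5d: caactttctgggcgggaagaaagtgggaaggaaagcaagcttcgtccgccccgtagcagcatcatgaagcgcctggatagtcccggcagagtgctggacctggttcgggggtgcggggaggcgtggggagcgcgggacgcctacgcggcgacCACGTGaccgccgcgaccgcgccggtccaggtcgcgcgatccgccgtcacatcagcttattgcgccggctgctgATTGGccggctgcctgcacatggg
Counted without overlapping matches, Fasn and Thrsp each hold CCAAT 2 times and no CACGTG. In Fasn the marked CCAAT is followed by tgg, so ATTGG overlaps it there and is neither marked nor counted. Insig1, Hsd17b7 and Sc5d each hold CACGTG 1 time together with 1, 3 and 1 of CCAAT. Of 32851 such stretches in the RefSeq table, 33.8% hold CCAAT on either strand (9.91% at least 2 times), 6.02% hold CACGTG and 1.98% hold both. The letters TCACNCCAC, a common form of the sterol regulatory element, were searched on both strands as well, are in 1.05% of all stretches and in none of these 5. The other called members do not divide by motif and direction. Cyp51 and Sc4mol, which rose, hold no CACGTG and hold CCAAT 1 and 3 times. Mlxipl, which fell, has 2 listed starts, 1 with CACGTG and CCAAT 1 time each and 1 with TCACNCCAC alone, Acacb holds CCAAT 1 time, and Me1 holds it 1 time at 1 of 2 listed starts. None of the 3 motifs is in the stretch of Acly, Acaca, Elovl6, Tkt or Mid1ip1, and Scd2 has no entry. A match in letters is a description and says nothing of binding in these mice.

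Most genes that go with growth of the fat pad rose. Of 12 tested members of the fat expansion list, 9 rose, beside 4.55% of all tested genes. Their median log2 fold change was 1.14, beside 0.0026 over all genes. The list was chosen with earlier results of these data known, so these values only describe it. Mest (mm9 chromosome 6 from 30673547 to 30698457), an imprinted gene of the hydrolase fold, gave 9.27, 26.7, 60.1, 16.4 and 22.7 TPM on LFD and 213, 479.8, 462, 70.0 and 742 TPM on HFD. All HFD libraries lay above all LFD libraries (log2 fold change 3.72, standard error 0.61, adjusted p = 0.00563), although they spread over a wide range, from replicate 20 to replicate 21. Leptin (Lep, chromosome 6 from 29010220 to 29023877) gave 115, 96.4, 179, 91.8 and 115 TPM on LFD and 426, 789, 809.9, 283 and 1133 TPM on HFD, again without overlap (log2 fold change 2.41, standard error 0.33, adjusted p = 0.00261). Sfrp5, a secreted inhibitor of Wnt signals, gave 2.08, 4.07, 9.17, 2.56 and 2.77 TPM on LFD and 28.4, 25.4, 31.6, 3.13 and 69.0 TPM on HFD. In 4 HFD libraries it lay far above the LFD values, while replicate 20 lay among them (log2 fold change 2.86, standard error 0.62, adjusted p = 0.0217). Peg3, another imprinted gene, rose by 1.78, and its value in HFD replicate 20 was again within the LFD range. Trp53inp2, an autophagy protein, rose by 1.20, Npr3, which clears natriuretic peptides, by 1.17, Bmp3 by 1.11, Cav1 by 0.89 and the growth factor Fgf1 by 0.75. Over the 12 members, HFD replicate 20 was the lowest HFD library for 8 and replicate 21 the highest for 8. Leaving out LFD replicate 6 lowered the number called to 7.

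**Figure D2:**
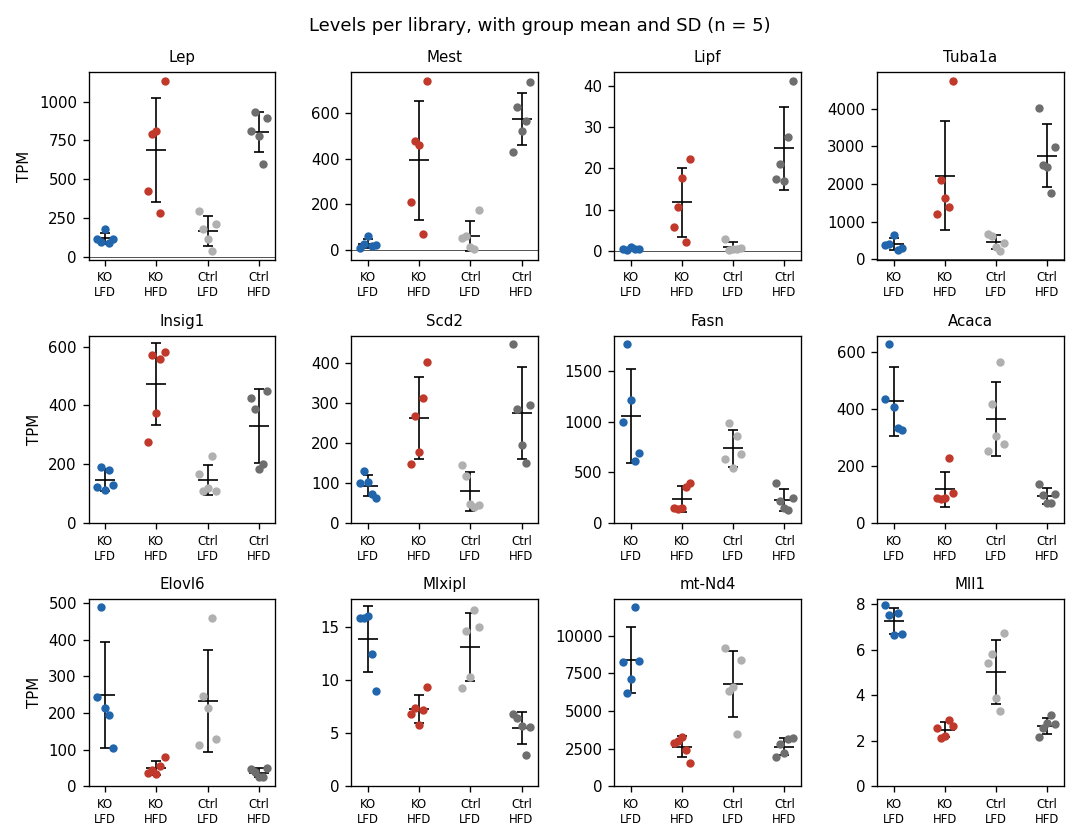
TPM of 12 genes in each library (points; vertical axes start at or just below 0), with group mean and SD as black bars, for knockout mice on LFD (blue) and HFD (red) and, for reference, control mice on LFD (light grey) and HFD (dark grey), 5 mice each. In the knockout mice no HFD point overlaps the LFD points for any of the genes except Mlxipl, where the lowest LFD value of 8.97 lies under the highest HFD value of 9.28.

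Members of the adipokine list were higher or not called. The counts here stand beside 4.55% of all tested genes called higher. Among 15 tested adipokines 4 rose, with a median of 0.28. Besides Lep these included Apln (apelin), at 0.625, 0.575, 0.549, 0.668 and 0.178 TPM on LFD and 1.72, 2.03, 3.45, 2.99 and 5.84 TPM on HFD, and Rarres2. Apelin was low but separated the diets completely (log2 fold change 2.502, standard error 0.41, adjusted p = 0.00563). Rarres2 (chemerin) also rose without overlap (log2 fold change 1.01, standard error 0.20, adjusted p = 0.0127). Adiponectin (Adipoq) was not called, although its groups did not overlap, at 824 ± 132 TPM on LFD and 1241 ± 207 TPM on HFD (SD, n = 5; log2 fold change 0.47, standard error 0.16, adjusted p = 0.123). The white adipocyte list had 3 of 20 members called, all higher, namely Lep, Pparg and Tshr, with a median of 0.31. Pparg, the master factor of adipogenesis, gave 113, 128, 139, 99.5 and 131 TPM on LFD and 160.0, 188, 192, 177 and 209 TPM on HFD (log2 fold change 0.46, standard error 0.13, adjusted p = 0.0653), and it was the 1 member called of 19 adipogenic transcription factors (median -0.015).

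Genes of fatty acid uptake, storage and oxidation are set here beside the 4.55% of all tested genes that were called higher. Of 14 genes of fatty acid uptake 3 rose (median 0.38). Lipf, which encodes gastric lipase, had the largest rise of all called genes whose groups did not overlap, with 0.408, 0.261, 1.08, 0.470 and 0.428 TPM on LFD and 5.91, 10.7, 17.7, 2.12 and 22.4 TPM on HFD (log2 fold change 4.30, standard error 0.64, adjusted p = 0.00362). Gpihbp1, the endothelial anchor of lipoprotein lipase, rose by 0.80 and the lipoprotein receptor Vldlr by 0.65, while lipoprotein lipase itself (Lpl) and Cd36 gave 0.34 and 0.57 and were not called (adjusted p = 0.345 and 0.199, edgeR). In the triglyceride synthesis list 2 of 15 rose (median 0.063), the acyltransferase Agpat9 (0.45) and the glycerol kinase Gyk (0.79). No call was made by edgeR among lipolysis genes (0 of 13 by edgeR, 4 at an unadjusted p under 0.05, 2 by DESeq2 and 1 by limma, with a median of 0.15) or lipid droplet genes (0 of 10 by edgeR, 2 at an unadjusted p under 0.05, 2 by DESeq2 and 2 by limma, with a median of 0.39). Values of those near the threshold were G0s2 at 0.91 and Adrb3 at -0.57 among the former and Plin4 at 0.78 and 2310016C08Rik at 1.19 among the latter (adjusted p = 0.11, 0.14, 0.106 and 0.135, edgeR). For fatty acid oxidation 4 of 23 rose (median 0.18), the dehydrogenase Acadm (0.65), the peroxisomal Ehhadh (0.46) and Decr1 (0.42) among them, and without LFD replicate 6 the count was 0, while with a length trend taken out it was 1. The rate-setting carrier Cpt1a was not called (log2 fold change 0.29, standard error 0.13, adjusted p = 0.224).

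Several genes of glucose uptake and insulin signalling fell. Of 21 tested members of that list, 7 fell and 2 rose (median -0.0076), beside 4.85% and 4.55% of all tested genes. Igf1r, the receptor of insulin-like growth factor, gave 4.87 ± 1.42 TPM on LFD and 2.26 ± 0.454 TPM on HFD (SD, n = 5), without overlap (log2 fold change -1.17, standard error 0.18, adjusted p = 0.00459). The insulin receptor (Insr) gave 26.5, 25.3, 22.9, 27.6 and 26.3 TPM on LFD and 20.8, 21.2, 22.2, 19.5 and 22.3 TPM on HFD, a small difference with no overlap (log2 fold change -0.54, standard error 0.13, adjusted p = 0.0397). Its docking protein Irs1 fell by 0.85, the transcription factor Foxo1 by 0.91 and the phosphodiesterase Enpp1 by 0.99 on the log2 scale. The Rab regulator Tbc1d4 fell by 0.65 and Pdk1 by 0.83. Pdk1 here is pyruvate dehydrogenase kinase 1 and not Pdpk1, the kinase upstream of Akt. Akt2 and Grb14, an adaptor that restrains the insulin receptor, rose by 0.69 and 0.86. The insulin-regulated glucose transporter Slc2a4 had wide ranges, 10.96 to 88.5 TPM on LFD and 10.8 to 53.2 TPM on HFD, and was not called (log2 fold change -0.67, standard error 0.42, adjusted p = 0.416). Several of these genes have long transcripts, and of the 7 that fell 3 (Igf1r, Foxo1 and Pdk1) were called once a trend with transcript length was taken out.

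**Figure D3:**
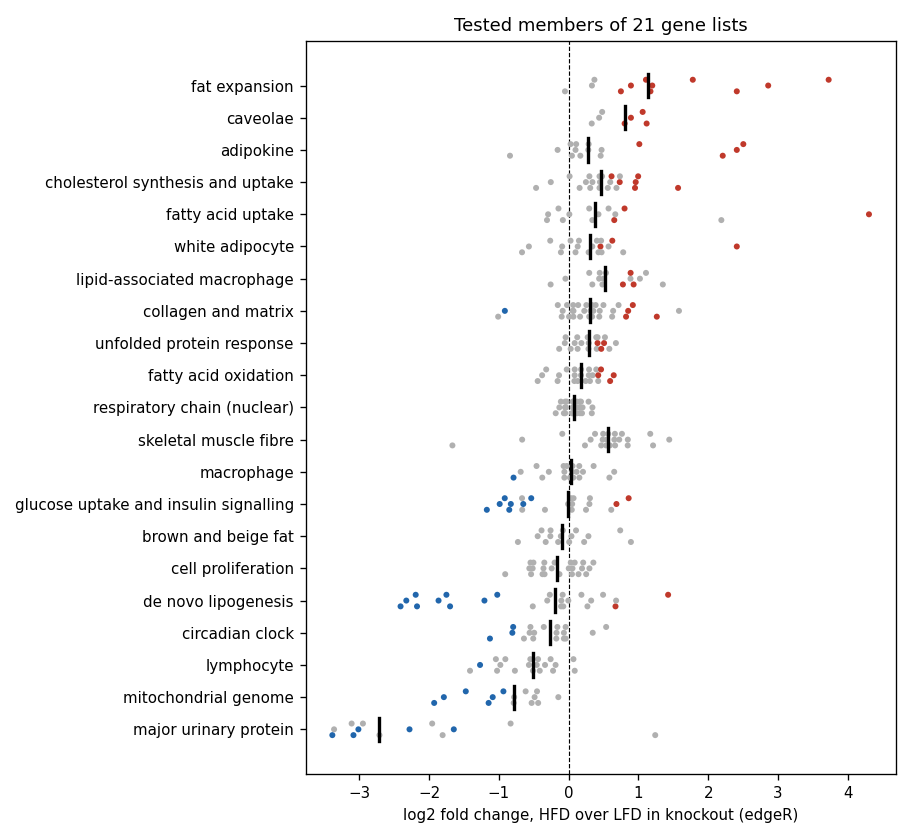
Log2 fold change of HFD over LFD in knockout mice for each tested member of 21 gene lists (points), red where called higher, blue where called lower and grey otherwise. Black bars give the list medians and the dashed line the median over all genes (0.0026), and the fat expansion list has the highest median of those shown (1.14), the major urinary proteins the lowest (-2.71).

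Genes of caveolae were among those that rose, and which cells of the pad carry them was not tested. The counts in this paragraph stand beside 4.55% of all tested genes called higher and 4.85% called lower. Of 7 tested genes of caveolae, the small pits that crowd the adipocyte membrane, 4 rose and all 7 lay above 0 (median 0.80). Cav1 gave 650.2, 576, 832, 659.6 and 890.4 TPM on LFD and 1035, 1694, 1752, 1136 and 1839 TPM on HFD, without overlap (log2 fold change 0.89, standard error 0.20, adjusted p = 0.0247). Ptrf (cavin-1) rose by 1.12, Prkcdbp (cavin-3) by 1.06 and Cav2 by 0.80. Of 32 collagen and matrix genes 4 rose and 1 fell (median 0.30). Sparc, a matrix protein known to bind collagen, gave 303, 319, 391.97, 323 and 382 TPM on LFD and 730.3, 965, 1132, 452 and 1312 TPM on HFD (log2 fold change 1.26, standard error 0.25, adjusted p = 0.0131). Col6a1, Col5a2 and Col4a1 rose by 0.92, 0.85 and 0.82, whereas Col1a1 fell by 0.91. Col4a1 lost its call in 14 of the alternative fits and kept it in 9. Of 18 genes of fat progenitors and stroma 3 rose, Mgp (0.97), Pi16 (0.96) and Cd34 (0.69), and Fn1 fell by 0.76 (median 0.30). The progenitor marker Pdgfra was not called (log2 fold change 0.009, standard error 0.12, adjusted p = 0.982). Of 15 endothelial genes Vwf was called, lower by 0.74, and of 11 Schwann cell genes S100b was called, higher at 1.53, with medians of 0.27 and 0.09.

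Of the 114 tested genes of 6 immune lists, 7.89% were called, beside 9.40% of all tested genes. Of 20 macrophage genes 1 was called, Mpeg1 (a pore-forming protein), lower by 0.79 (median 0.035), and the TPM summed over the list ran from 773 to 1343 TPM on LFD and 969.9 to 1453 TPM on HFD. Of 16 genes of lipid-associated macrophages, the cells that gather around dying adipocytes in obese fat, 3 rose (median 0.52). These were Gpnmb (0.93), Lgals3 (0.89) and the protease Ctsk (0.78). Trem2, the receptor that defines those cells, was near the detection limit at 0 to 1.59 TPM on LFD and 0.693 to 4.44 TPM on HFD and was not called (log2 fold change 1.35, standard error 0.97, adjusted p = 0.494), and neither was Itgax (CD11c; log2 fold change -0.26, standard error 0.25, adjusted p = 0.636). Summed over the list, the level was 1895 to 3056 TPM on LFD and 3279 to 5085 TPM on HFD, without overlap. Which members carry this sum was not examined, so it is no count of these cells. The 5 defining markers of macrophages summed to 173 to 258 TPM on LFD and 219 to 327 TPM on HFD, with 0 called. Among 24 genes of chemokines and inflammation, Ccr2 (0.52) and Hp (haptoglobin, 1.43) rose, while Ccl2 was not called (log2 fold change 0.70, standard error 0.37, adjusted p = 0.334). Lymphocyte genes had a median of -0.51 over 19, with 17 of them below 0 and 1 called, Cd3e of T cells (log2 fold change -1.27, standard error 0.40, adjusted p = 0.0931). The summed TPM of the list overlapped widely, at 572 to 1664 TPM on LFD and 671 to 1156 TPM on HFD. Antigen presentation (15 genes, median 0.082) and interferon-stimulated genes (20, median -0.12) had 1 called member each, both lower, Nlrc5 (-0.57) and Oas2 (-1.10).

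Transcripts of the mitochondrial genome were lower on HFD. The lists of mitochondrial genome, imprinted, tubulin, annexin, serotonin and chromatin genes were drawn up after values had been seen. Of 14 mitochondrial genes 6 fell (10 by DESeq2 and 4 with a length trend taken out), beside 4.85% of all tested genes. All 14 lay below 0, with a median of -0.78. mt-Nd4, a subunit of complex I, gave 8274, 6206, 7129.5, 11917 and 8339 TPM on LFD and 2873, 3012, 3295, 2418 and 1545 TPM on HFD, without overlap (log2 fold change -1.79, standard error 0.30, adjusted p = 0.00662). mt-Nd5 fell by 1.93, mt-Nd2 by 1.47, the ribosomal mt-Rnr1 by 1.15, and mt-Atp8 and mt-Atp6 of the ATP synthase by 1.09 and 0.93. Ribosomal RNA was depleted before sequencing, and the part of this step in the level of mt-Rnr1 was not tested. mt-Co1, of complex IV, was not called (log2 fold change -0.15, standard error 0.25, adjusted p = 0.816). Summed TPM of these genes was 235027, 219161, 216821, 297079.5 and 260358 TPM on LFD and 179025, 179874, 201173, 178226 and 113433 TPM on HFD, so the groups did not overlap and HFD replicate 21 was the lowest for all 14. As TPM is a share, a lower mitochondrial part raises the TPM of other genes, and with the mitochondrial and misc_RNA genes taken out of the counts, 644 genes were called higher and 800 lower. Gm10222, a predicted gene that resembles a mitochondrial sequence and can share its reads, also fell (log2 fold change -1.72, standard error 0.28, adjusted p = 0.00514). Nuclear genes of the respiratory chain were not called (0 of 32 by edgeR, 0 at an unadjusted p under 0.05, 0 by DESeq2 and 0 by limma) and had a median of 0.08 and a range of -0.18 to 0.34. Ndufb10, a subunit of complex I, gave 97.1 ± 22.4 TPM on LFD and 125 ± 23.3 TPM on HFD (SD, n = 5; log2 fold change 0.29, standard error 0.17, adjusted p = 0.399), and Ndufa1, of the same complex, gave 0.33 (adjusted p = 0.444).

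Lists of other tissues and states gave few calls, where 9.40% of all tested genes were called. Thermogenic genes were not called (0 of 16 by edgeR, 0 at an unadjusted p under 0.05, 0 by DESeq2 and 0 by limma, with a median of -0.10), and Ucp1 ran from 7.23 to 69.3 TPM on LFD and 4.28 to 194 TPM on HFD (log2 fold change 0.89, standard error 0.88, adjusted p = 0.648), while Ppargc1a gave -0.44. Muscle fibre genes varied between mice on both diets, with sums of 160.3 to 1819 TPM on LFD and 255 to 2435 TPM on HFD, and members called were 0 of 23 by edgeR, 0 at an unadjusted p under 0.05, 0 by DESeq2 and 0 by limma (median 0.57; Mb at 1.44 and Ttn at -1.66, adjusted p = 0.356 and 0.305). Proliferation genes were not called (0 of 24 by edgeR, 1 at an unadjusted p under 0.05, 0 by DESeq2 and 0 by limma, median -0.17; Mki67 at -0.56 and Bub1b at -0.50, adjusted p = 0.292 and 0.2). In the list of mammary and skin epithelium, 1 of 22 was called, the oestrogen receptor Esr1, lower by 0.79 (median -0.17), with sums of 524 to 835 TPM on LFD and 524 to 1055 TPM on HFD. Of 8 milk protein genes Glycam1, a mucin-like protein of mammary gland and lymph node vessels, fell, with 281 to 738 TPM on LFD and 13.2 to 149 TPM on HFD (log2 fold change -2.82, standard error 0.59, adjusted p = 0.0182).

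Counts of the next lists stand beside 4.55% of all tested genes called higher and 4.85% called lower. Clock genes had 3 of 18 called, all lower (median -0.27). Of these Nr1d1 fell by 0.81 and Per1 by 0.79, and the labels give no time of dissection. The unfolded protein response had 3 of 20 called, all higher, the chaperone Hspa5 (0.41), Asns (0.47) and Edem1 (0.51; median 0.29), and none without LFD replicate 6. Of 12 steroid hormone genes, Hsd11b1, which makes active glucocorticoid inside fat, gave 46.6, 117, 54.6, 28.8 and 38.5 TPM on LFD and 26.5, 11.4, 14.8, 20.7 and 28.1 TPM on HFD and fell without overlap (log2 fold change -1.68, standard error 0.32, adjusted p = 0.012). The glucocorticoid-induced Tsc22d3 rose by 0.64. Antioxidant genes moved both ways, with 3 of 25 higher, the extracellular superoxide dismutase Sod3 (1.55), Gstm2 (0.77) and Sod2 (0.48), and 2 lower, Cyp2e1 (-1.36) and the plasma peroxidase Gpx3 (-1.06; median 0.26). Breakdown of branched-chain amino acids had 3 of 20 called, Mut (0.42) and Mccc2 (0.46) higher and Mccc1 (-0.51) lower (median 0.13). Of 19 nuclear envelope genes Syne1, a giant protein that links nucleus and cytoskeleton, was called, lower by 0.71 (median 0.10), and with the length trend taken out it gave 0.12 and was not called.

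The major urinary proteins, small pheromone carriers made mostly in liver, had the lowest median of all the lists. The genes are near-identical copies whose reads the counting can share among them, so the family sum is the firmer value. It was 2109, 2938, 1391, 1163 and 2807 TPM on LFD and 429, 93.9, 121, 644 and 158 TPM on HFD, and the groups did not overlap. By the test, 5 of 13 members fell, beside 4.85% of all tested genes, with a list median of -2.71. They were Mup14 (-3.38), Mup11 (-3.08), Mup10 (-3.01), Mup15 (-2.28) and Mup19 (-1.64).

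The called genes with the largest log2 fold changes and no overlap included several that no list was made for. On the higher side, after Lipf, came Tph2 (4.03), the tryptophan hydroxylase known from serotonin neurons. It gave 0.138, 0.534, 0.627, 0.0274 and 0.0241 TPM on LFD and 0.788, 7.67, 5.26, 0.917 and 8.05 TPM on HFD, low values of which the lowest on HFD was just above the highest on LFD (log2 fold change 4.03, standard error 0.97, adjusted p = 0.0335). Tph2 reached the 0.5 TPM filter only through its HFD libraries. Tph1, a relative of Tph2, fell (log2 fold change -1.78, standard error 0.43, adjusted p = 0.0347), and the serotonin-degrading Maoa rose (0.68). Mest was next, followed by Kcne1l (3.29), a potassium channel subunit, Prnd (3.04), a relative of the prion protein, Trfr2 (2.97), a transferrin receptor, the transcription factor Klf14 (2.94), the phospholipase Pla2g2e (2.71), Apln, Tuba1a, Lep and Pcolce2 (2.22), which helps to process procollagen. Klf14, an imprinted regulator of fat metabolism, gave 0.475, 0.526, 1.84, 1.06 and 0.827 TPM on LFD and 2.69, 13.7, 7.55, 2.49 and 11.4 TPM on HFD (log2 fold change 2.94, standard error 0.53, adjusted p = 0.00928). Tuba1a, an alpha tubulin, was also among the most abundant genes that rose, with 379, 404, 659, 245 and 304 TPM on LFD and 1209, 2113, 1642, 1388 and 4742 TPM on HFD (log2 fold change 2.49, standard error 0.38, adjusted p = 0.0041). It is close in sequence to Tuba1b, which rose by 1.09, so reads may be shared between them. With Tuba8 (0.80), 3 of 14 tubulins rose (median 0.26), beside 4.55% of all tested genes. The tubulin list was drawn up after values had been seen, and nothing is drawn from its count.

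Other abundant genes that rose were Dbi (0.60), a carrier of acyl-CoA, the membrane protein Itm2b (0.67), gamma-synuclein Sncg (log2 fold change 1.21, standard error 0.18, adjusted p = 0.00318), which is plentiful in fat, and Cav1. Sncg gave 588, 692, 791, 509 and 741 TPM on LFD and 1714, 1495, 1673, 1255 and 1942 TPM on HFD. The annexin and imprinted lists were drawn up after values had been seen, so nothing is drawn from their counts. These stand beside 4.55% of all tested genes called higher. Annexins, which bind membranes in the presence of calcium, had 5 of 10 higher (median 0.38). They were Anxa6 (0.995), Anxa5 (0.89), Anxa2 (0.85), Anxa1 (0.71) and Anxa7 (0.39). Of 19 imprinted genes, which are expressed from 1 parental copy, 6 rose (median 0.28), Mest, Peg3, H19 (1.30), Sgce (0.52), Impact (0.51) and Grb10 (0.44). Klf14 was not in that list.

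On the lower side the list began with short or little known RNAs. The small nucleolar RNA SNORA76 had no count in any HFD library and 13.6, 12.7, 9.72, 35.0 and 12.8 TPM on LFD, so it was at least 7.27-fold lower against a floor of 3 counts per library (adjusted p = 0.0269, edgeR). A small nuclear U6 RNA (ENSMUSG00000065331) and a 7SK copy (ENSMUSG00000084544) fell by 4.48 and 4.28, and AU015336, Gm12122, Gm15937 and AA413626 fell by 6.29, 5.75, 5.27 and 4.83, each with at least 2 HFD libraries at 0, where the fitted fold depends on the prior count. LFD replicate 9 was the highest library for each of these 7. Slc15a5, a peptide transporter gene, gave 12.5, 38.9, 17.002, 19.8 and 2.42 TPM on LFD and 1.26, 0, 1.83, 0.176 and 0.608 TPM on HFD (log2 fold change -4.87, standard error 0.94, adjusted p = 0.0128). Cybrd1, a ferric reductase of iron uptake, gave 0.892, 0.977, 1.56, 0.740 and 1.09 TPM on LFD and at most 0.174 TPM on HFD (log2 fold change -4.20, standard error 0.98, adjusted p = 0.0302). Zfp850 (-3.88), a zinc finger gene, and Fbn2 (-3.83), a fibrillin of the matrix, were low in level too, and Mup14 closed the list. Genes at or near 0 on HFD, Cybrd1 and SNORA76 among them, reached the 0.5 TPM filter only through their LFD libraries. Of the 10 fits with 1 library left out, Cybrd1 passed the filter in 8 and Fbn2 in 7.

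Direction was tied to the length of the transcript. Called genes that fell had a median longest transcript of 5120 bases, against 2809 for those that rose and 2793 for all tested genes. In the longest of 8 equal groups of genes (5546 bases and more), 17.4% were called lower and 2.5% higher, while in the fourth (2172 to 2793 bases) 2.14% were lower and 6.56% higher. The median log2 fold change was -0.20 in the longest group, 0.08 in the fourth and -0.27 in the shortest, and in the control mice -0.12, -0.0054 and -0.24. With offsets that take a smooth trend with length out of each library, 661 genes were called higher and 543 lower, of which 507 and 507 were among those called without them, and the longest group then had 7.64% lower and 8.61% higher. The study's methods set a lower limit on the RNA integrity number, and no value for each library is given in the sources used here. What sets this trend was not tested.

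**Figure D4:**
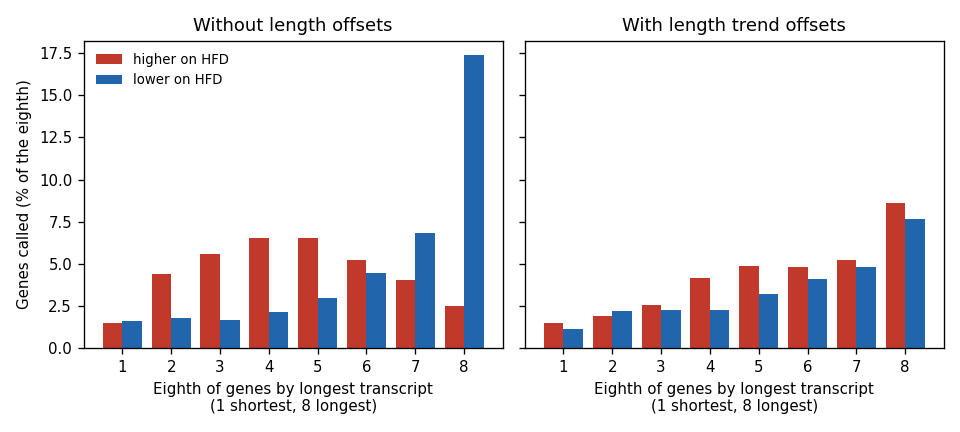
Share of genes called higher (red) and lower (blue) on HFD in knockout mice (vertical axis, percent) in 8 equal groups of genes from the shortest to the longest transcript (horizontal axis), without (left) and with (right) offsets for a length trend. On the left the share called lower climbs from 1.63% in the shortest group to 17.4% in the longest, and on the right from 1.12% to 7.64%.

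A list of 54 chromatin regulators was made after their values had been seen, so that nothing is drawn from its counts. Of these 25 fell, beside 4.85% of all tested genes and 17.4% of the longest eighth. The median over the list was -0.38, and 15 had groups that did not overlap. Their longest transcripts run from 4468 to 19805 bases. The histone methyltransferase Mll1 (also Kmt2a) gave 7.95, 7.51, 6.66, 7.59 and 6.70 TPM on LFD and 2.57, 2.10, 2.20, 2.93 and 2.64 TPM on HFD (log2 fold change -1.63, standard error 0.13, adjusted p = 7.18e-05). Mll2 (-1.93), Setd1b (-1.84), the remodeller Srcap (-1.56) and the acetyltransferases Crebbp (-1.23) and Ep300 (-0.99) also fell, each without overlap. With the length trend taken out, 16 of the 54 were called lower, and the values were -1.03 for Mll1, -1.01 for Crebbp and -0.70 for Ep300. Also long is Xist, the noncoding RNA that coats the inactive X chromosome of females, which gave 174, 165, 147, 225 and 146 TPM on LFD and 68.8, 78.6, 60.9, 63.6 and 64.6 TPM on HFD without overlap (log2 fold change -1.48, standard error 0.17, adjusted p = 0.00128). With the trend it gave -0.87. It was named after its values were seen.

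Control mice served to ask whether the response belonged to the knockout. Their own diet comparison shares no library with that of the knockout mice and called 1427 of 15311 genes (9.32%), 676 higher (4.42%) and 751 lower (4.90%). Of the 1476 genes called in the knockout mice, 1459 were tested in control mice, 693 were called there in the same direction (47.0% of the knockout calls and 48.6% of the control calls) and 0 in the opposite direction. The sign was the same for 1427 of the 1459 (97.8%), as it was for 74.3% of the 14943 genes tested in both. Genes that rose in the knockout mice had a median log2 fold change of 0.69 there and of 0.53 in the control mice, and those that fell had medians of -0.90 and -0.60. These medians favour the knockout, since its values chose the genes.

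**Figure D5:**
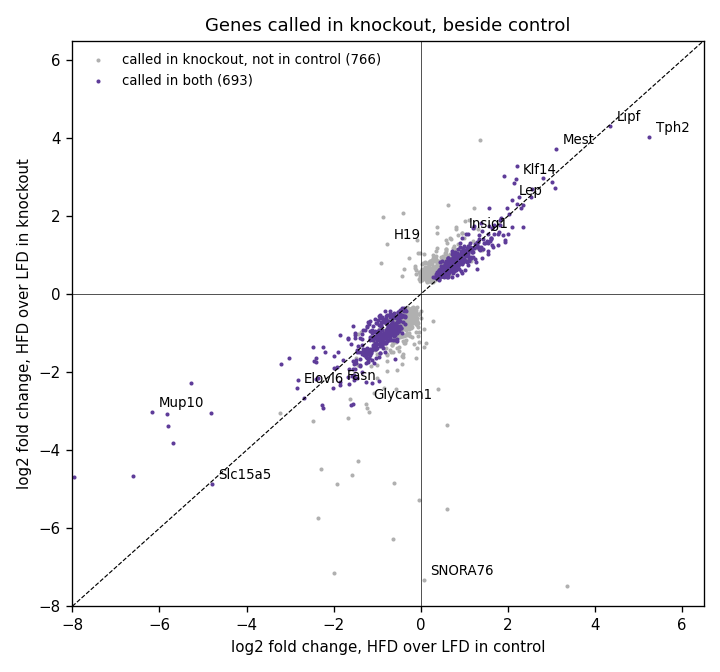
Log2 fold change of HFD over LFD in control mice (horizontal axis) and in knockout mice (vertical axis) for the 1459 genes called in knockout mice and tested in both, purple for the 693 called in both and grey for the other 766. The dashed line marks equal change, most points lie in the lower left and upper right fields, and 3 genes lie outside the axes.

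A test of the difference itself, the interaction of diet and genotype over all 20 libraries, called 0 of 15574 genes with edgeR (0%), with 560 at an unadjusted p under 0.05, 17 with DESeq2 and 0 with limma. For Lep the diet effect in knockout minus that in control mice was 0.29 (-0.77 to 1.35), for Mest 0.61 (-1.35 to 2.57), for Fasn -0.49 (-1.79 to 0.81), for Elovl6 0.41 (-0.69 to 1.51), for Acaca 0.22 (-0.76 to 1.20) and for Insig1 0.59 (-0.29 to 1.47), each with a 95% interval that holds 0. Such intervals leave room for sizeable differences between the genotypes. Among genes named above, the smallest interaction p values were those of H19 and Pdgfra. H19, an imprinted noncoding RNA, gave 1.30 in knockout and -0.78 in control mice (difference 2.06, standard error 0.47, unadjusted p from edgeR 0.000283, adjusted p = 0.976), and Pdgfra gave 0.01 and -0.72 (difference 0.71, standard error 0.16, adjusted p = 0.976, edgeR). DESeq2 called both, with adjusted p = 0.0172 and 0.0188. It also called Gm15937 (-5.27 in knockout and -0.03 in control mice, adjusted p = 0.00231) and AU015336 (-6.29 and -0.63, adjusted p = 0.0709), which edgeR did not (adjusted p = 0.976 for each). Itgax gave -0.26 in knockout and 0.92 in control mice and was called by DESeq2 (adjusted p = 0.0944) but not by edgeR. Among the 17 DESeq2 calls, Gm4245 and Eif4a-ps4 had the smallest adjusted p. Their fitted log2 differences of -30.2 and -27.2 are too large to be read as folds. The same holds for Gm10031 (-28.2) and Pgk1-rs7 (-27.4), so the number of DESeq2 calls is no count of genes with a reliable difference. The median of the muscle list was 0.57 in knockout and -3.81 in control mice, where 1 LFD library held 5531 TPM of these genes, while no library of another group held more than 2435 TPM. The median of the major urinary proteins was -2.71 in knockout and -5.27 in control mice, that of the respiratory chain list 0.08 and -0.40, and that of the thermogenic list -0.10 and -0.89, differences that were not tested as lists.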

How the data were processed

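Whole iWAT RNA was sequenced per mouse as 150-base read pairs after ribosomal RNA depletion with a stranded kit. The authors deposited estimated counts and TPM from Salmon 0.13.1 on Ensembl NCBIM37 transcripts (mm9), with no pooling of replicates. The submitters' processing notes also name STAR 2.5.3. Of 96533 transcripts 97.7% were matched to 36611 genes of the annotation and summed per gene, and the rest were left out. Salmon shares reads among similar transcripts, so genes with near-identical copies are uncertain.

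Estimated counts were rounded and tested with edgeR 4.0.16 (quasi-likelihood, TMM, R 4.3.3) where the mean was at least 0.5 TPM, and adjusted p under 0.1 (Benjamini-Hochberg) was called, the limit of the study's methods. limma 3.58.1 used log2(TPM + 1). DESeq2 1.42.0 was an alternative. Fits were tested on simulated data. Differences in TPM of Tmem120a were tested with exact permutation tests (Python 3.11.15). Genes named are Tmem120a, Tmem120b, the 12 largest changes in each direction among called genes without overlap, the 5 most abundant called genes in each direction, called list members, and for lists without a call those with the smallest p. Other genes that were not called (among them Scd1, Srebf1, Adipoq and Cpt1a), as well as Xist, Klf14 beyond its rank and the promoters, were chosen after values were seen. The comparison and the lists were chosen with earlier results of these data known. Depth ranged from 54605101 to 92387737 estimated counts, and p-values measure the spread between these mice only. Some list members are not reported here. Alternatives were other scalings, filters, tests, length offsets and leaving out each library.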

Additional observations from a re-analysis of the deposited data

Results flagged for a closer look

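A library was picked out where its log2(TPM + 1) lay farther from the rest of its group than the 95% limit of Dixon's test for 5 values. Of 338 groups looked at for 169 named genes 21 were picked out, and chance alone gives about 1 in 20. HFD replicate 21 stood out in 7 of the groups. It was low for the mitochondrial mt-Atp6 (9596 TPM against 18002 to 21299 TPM in the other HFD libraries), mt-Nd5 (463 against 874 to 997 TPM) and Gm10222 (1099 against 2325 to 2728 TPM), and high for the lipoprotein lipase anchor Gpihbp1 (106 against 50.6 to 56.2 TPM) and for Crebbp (7.50 against 5.73 to 6.06 TPM), while AA413626 (0.389 TPM) and Gm12122 (0.318 TPM) were listed at 0 in all the other HFD libraries.

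HFD replicate 20 was low for Peg3 (21.7 against 60.4 to 85.7 TPM), Trp53inp2 (28.0 against 48.0 to 59.1 TPM) and 2310016C08Rik (2.24 against 6.96 to 9.68 TPM), and high for Acaca (229 against 84.8 to 105 TPM) and Nlrc5 (24.9 against 14.3 to 16.8 TPM). HFD replicate 17 was low for Ccr2 (47.7 against 62.7 to 66.8 TPM) and held AU015336 at 0.121 TPM with the others at 0, and HFD replicate 19 held U6 at 1.63 TPM with the others at 0. On LFD, replicate 9 was high for SNORA76 (35.0 against 9.72 to 13.6 TPM) and AU015336 (5.39 against 1.14 to 1.68 TPM), replicate 10 was low for Apln (0.178 against 0.549 to 0.668 TPM) and Sc4mol (14.5 against 24.0 to 26.6 TPM), replicate 8 was high for Nr1d1 (52.8 against 43.9 to 46.1 TPM) and replicate 7 low for Tph1 (3.82 against 13.3 to 20.1 TPM).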

How the results depend on the processing

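With DESeq2, 2247 genes were called in knockout mice (1212 lower) in place of 1476, and the other settings gave between 1174 and 2100 calls. Leaving out 1 library gave 753 to 1355 calls, 289 to 669 higher and 464 to 713 lower, fewest without LFD replicate 6. In control mice DESeq2 called 2205 (1056 higher, 1149 lower), limma on log2(TPM + 1) called 1791 higher and 348 lower and limma on log2(TPM + 0.1) called 2148 (1791 and 357), or 83.7% and 83.4% higher in place of 47.4%, and leaving out 1 library gave 780 to 1845 calls, 376 to 1034 higher and 389 to 817 lower. The interaction had 17 calls with DESeq2 (7 higher, 10 lower) and 18 with DESeq2 and length offsets (9 and 9), and 0 with each library left out. The causes were not tested. The length trend and the removal of mitochondrial genes were added after the data had been seen. Of 3863 alternative values for 169 named genes, 3411 kept their direction and their side of the threshold, 393 lost the call, 40 gained it and 19 changed sign. Of called genes only Syne1 did (0.12 with the length trend taken out). Of those not called, Ttn gave 0.042 with that trend taken out, Srebf1 0.11 and 0.12 with limma at pseudocounts of 1 and 0.1 and -0.27 to 0.14 with 1 library left out, Ucp1 -0.0020 with limma at 0.1 and -0.70 to 1.42 with 1 library left out, and Pdgfra -0.000507 with RLE size factors, -0.017 at a mean of at least 2 TPM, -0.000542 with DESeq2, -0.033 and -0.026 with length offsets in edgeR and DESeq2, -0.010 without mitochondrial genes and -0.033 to 0.046 with 1 library left out. Some calls were often lost, in 16 alternative fits for Decr1, 15 for Nlrc5, 14 for Col4a1 and 13 each for Ccr2 and Sgce. For Ehhadh, Tsc22d3 and U6 (ENSMUSG00000065331) the call was lost in 12 each, and for Lgals3, Tshr and Anxa7 in 11 each. No paired analysis was possible because the groups share no replicate numbers. The 5 mice a group limit what could be called.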
